A study of Mus musculus with 16 samples.

Results

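The 7 genes described here encode proteins that set the rate of translation initiation through the factor eIF2 or the mRNA cap. Eif2ak1, Eif2ak2, Eif2ak3 and Eif2ak4 encode the kinases of eIF2, Ppp1r15a and Ppp1r15b encode subunits that bring protein phosphatase 1 to eIF2, and Eif4ebp1 encodes the cap-translation repressor 4E-BP1. They were taken by symbol from a table of counts per gene and are 7 of its 36499 entries. Each symbol stood on 1 entry, and all 7 were among the 15255 genes that passed a filter on low counts.

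RNA was sequenced from cardiac tissue of mice on a normal chow diet, in 4 groups of 4 libraries: wild type, Fgf21 KO, Clpp KO and double KO. Clpp encodes the peptide-cutting part of a protease inside mitochondria (ClpXP), and Fgf21 encodes a secreted stress hormone. The series title concerns whether FGF21 alters the mitochondrial stress response of heart muscle cells when the dysfunction is mild. The Clpp KO mice came from Clppfl/fl mice and a Cre driven by the β-actin promoter, which is active in all tissues, through an intercross of Clpp+/- offspring. The double KO mice came from Clppfl/fl Fgf21fl/fl mice and the same Cre, so both deletions were present throughout the body. The labels used here do not give how the Fgf21 KO mice were made, nor age, sex or whether each library is from its own animal. The p-values therefore rest on library-to-library spread, which may be technical.

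Each of the 4 kinases phosphorylates the alpha subunit of eIF2, which blocks the exchange factor eIF2B, lowers general translation and favours translation of the transcription factor ATF4. They differ in what activates them: HRI (Eif2ak1) responds to lack of heme and to mitochondrial stress relayed by DELE1, PKR (Eif2ak2) to double-stranded RNA, PERK (Eif2ak3) to unfolded protein in the endoplasmic reticulum, and GCN2 (Eif2ak4) to uncharged tRNA and stalled ribosomes. GADD34 (Ppp1r15a) is the inducible and CReP (Ppp1r15b) the constitutive partner of the phosphatase that reverses the mark. Kinase activity is set on the protein, and neither phosphorylation nor protein was measured here.

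Library totals ran from 36260545 to 51820727 counts. Transcripts of the mitochondrial genome took 25.5% to 39.4% of the counts in the 8 libraries with Clpp and 56.1% to 60.8% in the 8 without, so levels are given as CPM, the count relative to library size, corrected by TMM factors that trim such extreme genes, here called scaled CPM. Clpp itself lay between 28.6 and 46.9 scaled CPM in the 8 libraries with Clpp and between 7.26 and 9.68 in the 8 without, which separates these genotypes. Fgf21 had 0 counts in all 8 libraries of the Fgf21 KO and the double KO and 6 to 28 in the Clpp KO, but only 0 to 5 in the wild type, so its counts hardly separate Fgf21 KO from wild type. Cardiomyocyte markers were high in every library, with a summed level of at least 17708 scaled CPM. Wild-type replicates 2 and 4 stood apart by their atrial markers, whose sum over 6 genes ran from 74.7 to 10091 scaled CPM in the wild type. The atrial sum also varied in the other groups. It ran from 337 to 2800 in the Fgf21 KO, 187 to 3485 in the Clpp KO and 161 to 1405 in the double KO. Group medians were 3252 in the wild type and 1049, 1147 and 232 in these groups, in that order. Wild-type replicate 2 also had a Y-linked sum of 2.29 scaled CPM against 35.3 to 81.1 elsewhere. Wild-type replicates 1 and 3 were by far the most similar pair, with a chi-square per degree of freedom of 5.68. Other pairs within a group had 23.3 to 408. The value of 5.68 exceeds sampling noise, but repeat libraries of the same heart can also do so. It therefore cannot tell whether these libraries come from separate hearts, and they were kept as separate libraries. In bulk tissue, fewer cells of a type and less RNA per cell cannot be told apart.

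Compared per kb of exon, mRNA of the translational repressor stood highest and that of 3 of the kinases lowest. The mean level over the 16 libraries was 22.9 scaled CPM per kb for Eif4ebp1, 8.98 for Ppp1r15a, 4.18 for Eif2ak1, 3.33 for Ppp1r15b, 1.47 for Eif2ak2, 0.869 for Eif2ak3 and 0.716 for Eif2ak4. Each of Eif4ebp1, Ppp1r15a and Ppp1r15b lay above the next gene of this order in all 16 libraries. Eif2ak1 and Eif2ak2 did so in 15 and Eif2ak3 in 14, and the SDs of Eif2ak3 (0.187) and Eif2ak4 (0.0835) are wide enough for that last pair to overlap.

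**Figure D1:**
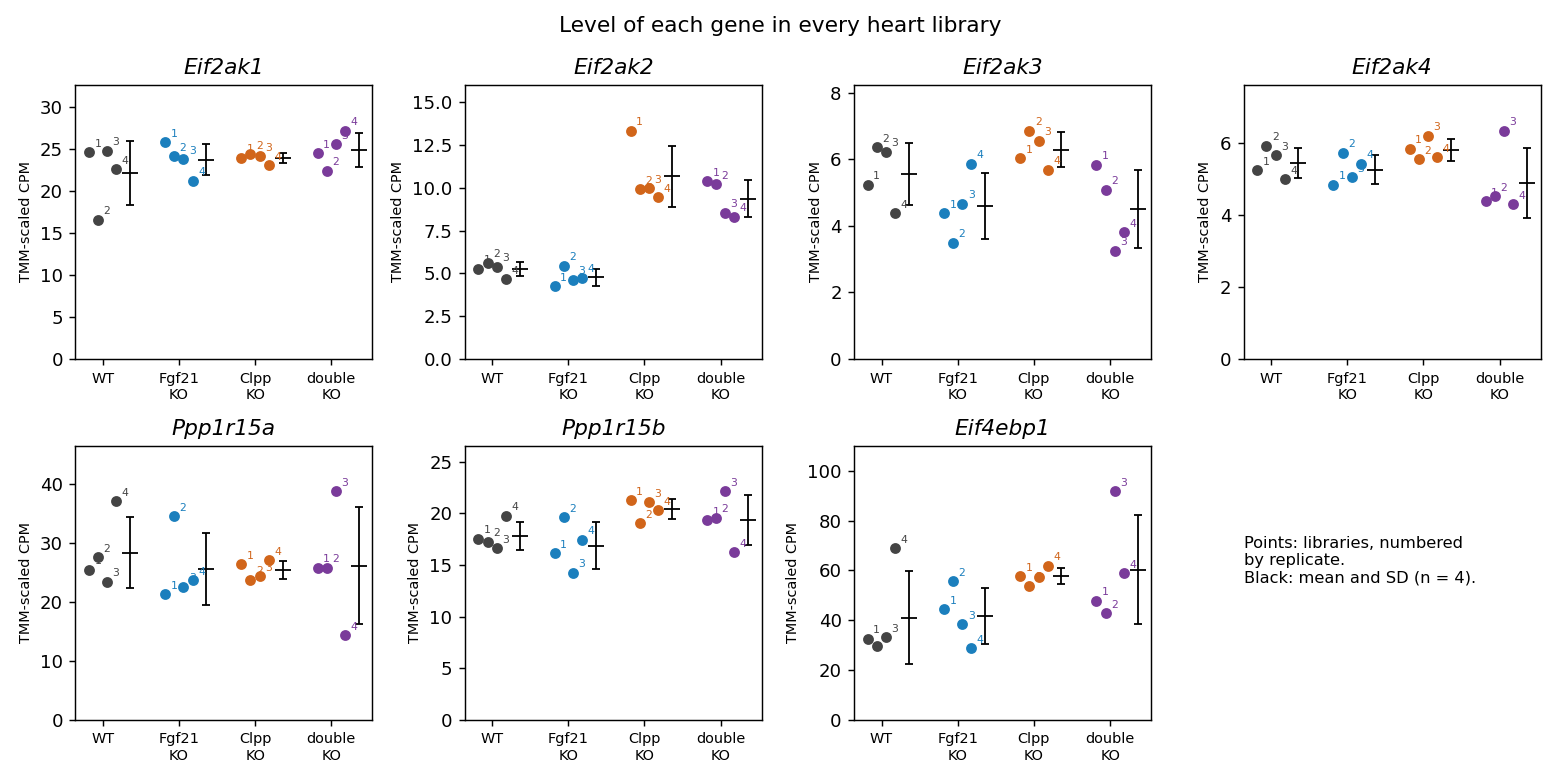
Level of each of the 7 genes in every library, in TMM-scaled CPM on a linear axis from 0, with points numbered by replicate and the mean and SD of each group (n = 4) in black. For Eif2ak2 the 8 libraries without Clpp lie between 8.31 and 13.3, above the range of 4.25 to 5.63 in the 8 libraries with Clpp, while for each of the other 6 genes the groups overlap.

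Eif2ak2, the gene of the double-stranded RNA sensor PKR, was the member whose mRNA changed, and it rose about 2-fold in both comparisons that remove Clpp. It lies on chr17:78852564-78882573 of GRCm38 (ENSMUSG00000024079, minus strand), 21.9 Mb from Clpp on the same chromosome. The part of this shared chromosome in the result was not tested.

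In the wild type Eif2ak2 was at 5.28, 5.63, 5.40 and 4.65 scaled CPM in replicates 1 to 4, and in the Clpp KO at 13.3, 9.90, 9.96 and 9.43. The Fgf21 KO libraries had 4.25, 5.45, 4.62 and 4.74, and the double KO libraries 10.4, 10.2, 8.54 and 8.31. Every library without Clpp was thus higher than every library with it, and replicate 1 of the Clpp KO was the highest of all. These levels rest on 227 to 373 counts per library in the wild type, 238 to 278 in the Fgf21 KO, 300 to 583 in the Clpp KO and 259 to 389 in the double KO.

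The log2 fold change of Eif2ak2 in Clpp KO against wild type was 1.02 ± 0.13 (SE, 95% interval 0.75 to 1.3, adjusted p = 0.000481 by edgeR's quasi-likelihood test with Benjamini-Hochberg adjustment over all 15255 genes), which ranked it 18 among all genes by p. Group means were 10.7 ± 1.80 (SD, n = 4) scaled CPM in the Clpp KO and 5.24 ± 0.418 in the wild type. It was the only member called, meaning past an adjusted p of 0.05, which makes 1 of 7 higher and 0 lower, where 1.08% of all genes tested were called higher and 0.551% lower. All libraries of the Clpp KO lay above all of the wild type for 7.75% of all genes and below it for 5.93%.

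Double KO against Fgf21 KO repeats the loss of Clpp in groups other than those of the first comparison. The spread behind both tests came from 1 fit to all 16 libraries, so their p-values are not independent. In double KO against Fgf21 KO Eif2ak2 rose by 0.97 ± 0.13 (0.70 to 1.25, edgeR adjusted p = 0.000565), from 4.77 ± 0.501 to 9.35 ± 1.08 scaled CPM. It was again 1 of 7 called higher and 0 lower, against 0.826% and 0.0656% of all genes, and groups without overlap were found for 3.88% of genes in this direction and 1.92% in the other. Double KO against wild type, which shares libraries with both, gave 0.84 ± 0.13 (0.56 to 1.11, edgeR adjusted p = 0.0024), with 1 of 7 higher and 0 lower against 1.05% and 0.479% of all genes, and the groups did not overlap, which held upwards for 5.36% of all genes and downwards for 4.48%.

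Scaling bears on the size of this rise. Without wild-type replicates 2 and 4 the log2 fold change was 1.00 (edgeR adjusted p = 0.00398) in Clpp KO against wild type and 0.81 (0.0193) in double KO against wild type. Scaled by library totals alone, the values were 0.26 (adjusted p = 0.221), 0.29 (0.186) and -0.071 (0.735) in the order above, while the median of all genes moved to -0.79, -0.70 and -0.92. With totals that leave out mtDNA-encoded counts, a setting chosen after seeing the data, they were 0.94 (0.0126), 0.91 (0.0195) and 0.63 (0.0506), so that the call in double KO against wild type was lost. The median of all genes in this setting was -0.115, -0.073 and -0.22 in the same order.

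A measure that no library scaling touches is the make-up of the kinase mRNA. Of the summed counts per kb of the 4 kinases, Eif2ak2 held 15.7% ± 2.04 (SD, n = 4) in the wild type, 14.1% ± 1.52 in the Fgf21 KO, 25.6% ± 3.13 in the Clpp KO and 24.0% ± 2.75 in the double KO. The share lay between 12.3% and 18.7% in the 8 libraries with Clpp and between 21.3% and 30.2% in the 8 without, with no overlap. Eif2ak1 was the largest of the 4 shares in every group, at 59.1% ± 6.27, 63.5% ± 3.54, 52.0% ± 2.02 and 57.7% ± 4.39 in the same order. Eif2ak3 held 14.1%, 11.6%, 12.9% and 9.78%, and Eif2ak4 11.2%, 10.7%, 9.57% and 8.59%. These shares are descriptions of the same counts and were not tested on their own.

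**Figure D2:**
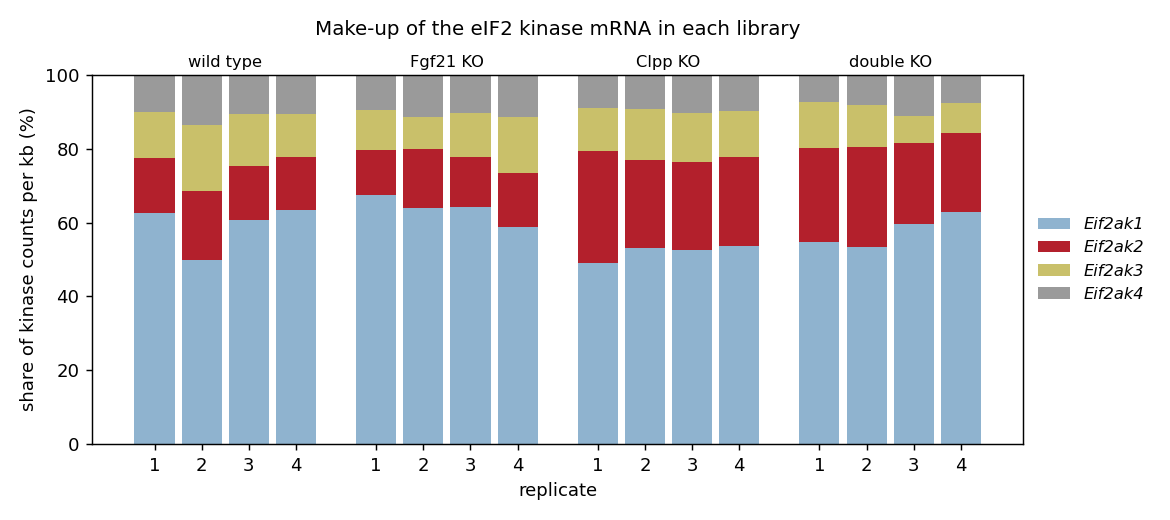
Stacked bars give, for each library, the percentage of the 4 kinases' summed counts per kb of merged exon that each kinase holds. The Eif2ak2 segment covers 12.3% to 18.7% in wild type and Fgf21 KO and 21.3% to 30.2% in Clpp KO and double KO, while Eif2ak1 remains the widest segment in each bar.

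The start of Eif2ak2 carries a sequence that is also found at other interferon-stimulated genes, shown here because those genes moved in the same comparisons. Promoter windows from RefSeq (GRCm38.p6, 250 bases before to 50 after the start) were searched on both strands for GAAANNGAAA, a core of the interferon-stimulated response element, and for TGATGNAA, the CARE element bound by ATF4 and CHOP. The motifs can share bases, but no window of the listed genes held both. In the sequences below the capitals mark the match, each sequence reads 5′ to 3′ along the gene's own strand, and a match on the opposite strand reads TTTCNNTTTC.
Eif2ak2, chr17:78882535-78882564, minus strand: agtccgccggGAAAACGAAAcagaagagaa
Ppp1r15a, chr7:45526469-45526498, minus strand: aaaataaaagGAAAGGGAAAtggcacggta
Ifit1, chr19:34640794-34640823, plus strand: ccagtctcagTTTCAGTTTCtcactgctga
Rsad2, chr12:26456553-26456582, minus strand: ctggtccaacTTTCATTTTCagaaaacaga
Ddx58, chr4:40239804-40239833, minus strand: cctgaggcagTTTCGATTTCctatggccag
Asns, chr6:7693215-7693242, minus strand: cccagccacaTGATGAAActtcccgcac

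The match of Eif2ak2 begins at base 19 of the gene and that of Ppp1r15a 220 bases before the start. GAAANNGAAA was found in 1131 of all 32851 windows (3.44%), and TGATGNAA in 1304 (3.97%). Of the 7 members, 5 had a window: GAAANNGAAA was found in Eif2ak2 and Ppp1r15a and in none of Eif2ak1, Eif2ak3 and Eif2ak4, and TGATGNAA in none of the 5. Among the interferon-stimulated genes described below 6 of 10 with a window held GAAANNGAAA and 0 held TGATGNAA, and among the stress response genes 5 of 10 held TGATGNAA, Asns among them, and 0 held GAAANNGAAA. Ppp1r15a holds such a match and was not called in any comparison. For the longer context, the 250 bases before the start of Eif2ak2 (chr17:78882573-78882822, minus strand), which hold neither motif, read:
Eif2ak2: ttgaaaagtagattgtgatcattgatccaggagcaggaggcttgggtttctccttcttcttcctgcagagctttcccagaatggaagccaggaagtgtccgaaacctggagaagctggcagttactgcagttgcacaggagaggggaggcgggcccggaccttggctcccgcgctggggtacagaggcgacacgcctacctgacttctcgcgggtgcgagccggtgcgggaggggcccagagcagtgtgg

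Interferon-stimulated genes, a class to which Eif2ak2 belongs, rose in the same comparisons. Of 13 listed genes tested, 10 were called higher and 0 lower in Clpp KO against wild type, with a median log2 fold change of 1.65 where the median of all genes was -0.036. In double KO against Fgf21 KO all 13 were called higher, with a median of 1.87 against -0.0063. Usp18, which removes the ubiquitin-like protein ISG15 and dampens interferon signalling, had the smallest p of all genes in both, with log2 fold changes of 3.40 ± 0.17 and 3.94 ± 0.17 (edgeR adjusted p = 1.09e-08 and 1.96e-09). Ifit1, which binds foreign RNA ends, rose by 2.62 ± 0.18 and 3.04 ± 0.19, and the transcription factor Irf7 by 2.18 ± 0.18 and 2.83 ± 0.19. The fold change of Eif2ak2 was thus smaller than the median of this list in both comparisons. In Fgf21 KO against wild type edgeR called 0 of the 13, and 7 were lower at an unadjusted p under 0.05. The list median there was -0.37 against -0.011 for all genes. In double KO against Clpp KO edgeR also called 0, with a median of -0.022 against 0.0084.

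Macrophages express many of these genes, and their 7 markers summed to 81.4 to 148 scaled CPM in the wild type, 79.2 to 111 in the Fgf21 KO, 117 to 142 in the Clpp KO and 88.3 to 140 in the double KO. None of the 7 was called by edgeR or DESeq2 in either comparison that removes Clpp, and 1 and 2 of them had an unadjusted p under 0.05, both times higher. Of 4 endothelial markers, 1 was called lower by both tools in Clpp KO against wild type, namely Pecam1, named after its values were seen (-0.56 ± 0.12, edgeR adjusted p = 0.0283). In double KO against Fgf21 KO neither tool called any of the 4, and 0 had an unadjusted p under 0.05. Lymphocyte markers summed to between 0.639 and 2.04 scaled CPM in all libraries. The part of macrophage or endothelial content in the level of Eif2ak2 was not tested.

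The genes whose profile over the 16 libraries lay closest to that of Eif2ak2, by the root mean square of the log2 differences after centring each gene, were Ddx58 (0.139), Parp14 (0.168), Cmpk2 (0.183), Trim34a (0.188) and Tap1 (0.191). The same measure for Eif2ak2 against its own mean was 0.52. The 5 genes had log2 fold changes of 0.80, 0.69, 0.79, 0.71 and 0.85 in Clpp KO against wild type, and of 0.94, 0.89, 0.99, 1.02 and 1.16 in double KO against Fgf21 KO, in that order. All 5 were called higher in both, a direction that their choice by likeness to Eif2ak2 over the same libraries largely sets. In Clpp KO against wild type the calls were less firm: with totals without mtDNA-encoded counts all 5 were lost (edgeR adjusted p = 0.0856, 0.062, 0.0634, 0.134 and 0.0621), Cmpk2 was lost without wild-type replicates 2 and 4 (0.74, 0.0661), and Trim34a without wild-type replicate 4 (0.58, 0.0942) and with the replicate numbers as a block (0.0717). Leaving out Clpp KO replicate 1 ended the calls of Cmpk2 (0.0543) and Trim34a (0.14), as did a fit on these 2 groups alone (0.0759 and 0.115). The call of Trim34a was lost as well without Clpp KO replicate 3 (0.121) or 4 (0.0914), Fgf21 KO replicate 4 (0.0545) or double KO replicate 2 (0.0543). In double KO against Fgf21 KO, totals without mtDNA-encoded counts ended the calls of Ddx58 (0.0719) and Trim34a (0.070). With library totals alone all 5 calls were lost there (0.294, 0.304, 0.173, 0.189 and 0.0632) and in Clpp KO against wild type (0.927, 0.662, 0.918, 0.733 and 0.818).

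Eif2ak1, which encodes HRI, had the highest kinase mRNA level and did not pass the test in any comparison (chr5:143817788-143904251, plus strand, ENSMUSG00000029613). It was at 24.7, 16.6, 24.8 and 22.6 scaled CPM in the wild type and 24.0, 24.4, 24.2 and 23.1 in the Clpp KO, and at 25.8, 24.2, 23.8 and 21.3 in the Fgf21 KO and 24.5, 22.4, 25.6 and 27.2 in the double KO. Only wild-type replicate 2 stood below the rest. The log2 fold change was 0.11 ± 0.11 (-0.13 to 0.35, edgeR adjusted p = 0.584) in Clpp KO against wild type and 0.070 ± 0.11 (-0.17 to 0.31, 0.929) in double KO against Fgf21 KO. These intervals do not reach the 2-fold change, a log2 value of 1, that Eif2ak2 showed. Of the exons of Eif2ak1, 8.59% lie under exons of Aimp2 on the opposite strand and 10.3% of its 31-base stretches also occur in other genes, so a part of its counts may belong to these. Red blood cell markers, whose precursors are rich in HRI, summed to 2495 to 7309 scaled CPM in the wild type, 1279 to 3053 in the Fgf21 KO, 907 to 1821 in the Clpp KO and 636 to 10955 in the double KO, and their part in the level of Eif2ak1 was not tested.

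Eif2ak3, the gene of the endoplasmic reticulum kinase PERK, varied more between libraries (chr6:70844515-70905245, plus strand, ENSMUSG00000031668). It was at 5.24, 6.37, 6.23 and 4.38 scaled CPM in the wild type, 4.38, 3.49, 4.66 and 5.87 in the Fgf21 KO, 6.04, 6.86, 6.56 and 5.69 in the Clpp KO and 5.84, 5.09, 3.26 and 3.82 in the double KO. The double KO held the lowest library, and replicate 1 of that group still lay above replicate 4 of the Clpp KO. Its log2 fold change was 0.18 ± 0.19 (-0.22 to 0.57, edgeR adjusted p = 0.59) in Clpp KO against wild type and -0.028 ± 0.19 (-0.43 to 0.37, 0.986) in double KO against Fgf21 KO. In double KO against Clpp KO it was -0.48 ± 0.19 (-0.88 to -0.076), with an unadjusted p of 0.0228 that did not survive adjustment (edgeR adjusted p = 0.994).

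Eif2ak4, the gene of the amino acid sensor GCN2, was at 5.24, 5.92, 5.65 and 4.98 scaled CPM in the wild type and 5.83, 5.54, 6.20 and 5.59 in the Clpp KO (chr2:118388618-118475234, plus strand, ENSMUSG00000005102). In the Fgf21 KO it was at 4.84, 5.72, 5.04 and 5.42, and in the double KO at 4.37, 4.52, 6.33 and 4.30. The groups overlapped, and replicate 3 of the double KO lay above the other 3 of its group. The log2 fold change was 0.088 ± 0.13 (-0.18 to 0.35, edgeR adjusted p = 0.697) in Clpp KO against wild type and -0.11 ± 0.13 (-0.38 to 0.16, 0.894) in double KO against Fgf21 KO, with both intervals short of a 1.5-fold change. None of its 31-base stretches occurs in another gene, nor does any of Ppp1r15a. That share, taken on either strand, was 8.16% for Eif2ak2, 6.78% for Eif2ak3, 11.2% for Ppp1r15b and 7.2% for Eif4ebp1. A part of their counts may therefore belong to other genes. For Ppp1r15b 10.9% and for Eif2ak3 6.64% were shared with a gene on the opposite strand that the deposited counts do not list.

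**Figure D3:**
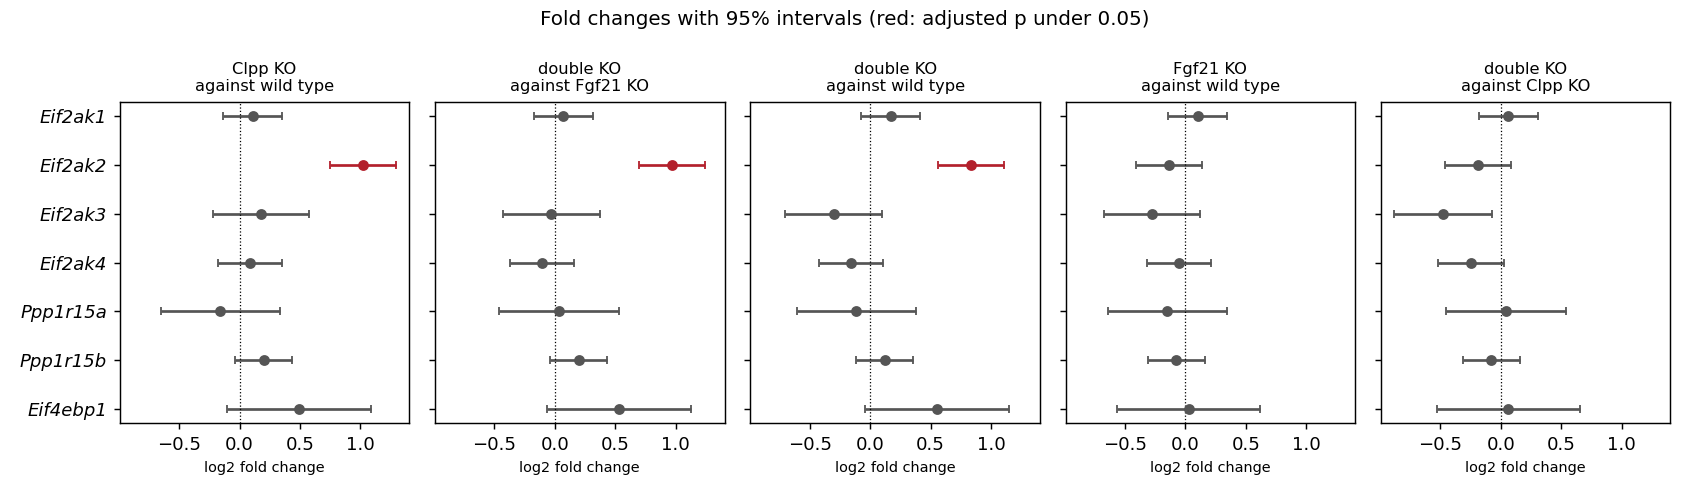
Log2 fold changes of the 7 genes with 95% intervals in the 5 comparisons of the 4 genotypes, with genes past an adjusted p of 0.05 (edgeR) in red. Eif2ak2 is red at 1.02, 0.97 and 0.84 in the 3 comparisons that remove Clpp, and the other intervals include 0 except that of Eif2ak3 in double KO against Clpp KO (-0.88 to -0.076).

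Neither regulatory subunit of the eIF2 phosphatase was called. Ppp1r15a, which encodes the stress-induced GADD34, was at 25.5, 27.6, 23.4 and 37.1 scaled CPM in the wild type, 21.4, 34.6, 22.6 and 23.7 in the Fgf21 KO, 26.4, 23.8, 24.4 and 27.1 in the Clpp KO and 25.8, 25.8, 38.8 and 14.3 in the double KO (chr7:45522916-45526268, minus strand, ENSMUSG00000040435). The highest and the lowest of the 16 libraries were both from the double KO. Its log2 fold change was -0.16 ± 0.23 (-0.65 to 0.33, edgeR adjusted p = 0.703) in Clpp KO against wild type and 0.035 ± 0.23 (-0.46 to 0.53, 0.986) in double KO against Fgf21 KO. With a biological coefficient of variation of 23.5%, where the trend for genes of like abundance was 18.3%, these intervals are wider than those of the kinases. Its sign in Clpp KO against wild type turned to 0.059 without wild-type replicates 2 and 4.

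Ppp1r15b, which encodes the constitutive subunit CReP, was at 17.5, 17.2, 16.6 and 19.8 scaled CPM in the wild type and 21.3, 19.0, 21.1 and 20.3 in the Clpp KO (chr1:133131143-133139783, plus strand, ENSMUSG00000046062). It was at 16.2, 19.6, 14.3 and 17.4 in the Fgf21 KO and at 19.4, 19.6, 22.1 and 16.3 in the double KO. Only the highest wild-type library reached into the Clpp KO range, and the other pair of groups overlapped more. The log2 fold change was 0.20 in both comparisons that remove Clpp, with a SE of 0.11 and intervals of -0.035 to 0.43 and -0.039 to 0.43 (edgeR adjusted p = 0.301 in Clpp KO against wild type and 0.762 in double KO against Fgf21 KO).

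Eif4ebp1, whose product holds the cap-binding protein eIF4E until mTORC1 releases it and whose gene is a known target of ATF4, was the most variable member (chr8:27260329-27276674, plus strand, ENSMUSG00000031490). It was at 32.6, 29.5, 33.3 and 68.8 scaled CPM in the wild type, 44.4, 55.5, 38.4 and 28.8 in the Fgf21 KO, 57.7, 53.8, 57.4 and 61.9 in the Clpp KO and 47.7, 42.9, 91.7 and 58.9 in the double KO. The 4 Clpp KO libraries lay within 53.8 to 61.9, above 3 wild-type libraries and below the fourth, replicate 4. Double KO and Fgf21 KO overlapped, since replicate 2 of the Fgf21 KO was above replicates 1 and 2 of the double KO.

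The log2 fold change of Eif4ebp1 was 0.49 ± 0.28 (-0.10 to 1.09, edgeR adjusted p = 0.313) in Clpp KO against wild type, 0.53 ± 0.28 (-0.067 to 1.12, 0.745) in double KO against Fgf21 KO and 0.56 ± 0.28 (-0.040 to 1.1, 0.245) in double KO against wild type. These sizes moved in either direction with the library left out. With 1 library left out at a time, the value ran from 0.38 to 0.86 in Clpp KO against wild type. It ran from 0.25 to 0.70 in double KO against Fgf21 KO and from 0.28 to 0.92 in double KO against wild type. The upper ends against wild type, 0.86 (edgeR adjusted p = 0.126) and 0.92 (0.0861), came without wild-type replicate 4. That library also had the highest fat markers of the wild type (189 scaled CPM against 13.7 to 53.6) and the highest red blood cell markers (7309 against 2495 to 4678), while the most atrial-rich library, replicate 2, had the lowest wild-type level of Eif4ebp1. The part of these cells in the level of Eif4ebp1 was not tested. The biological coefficient of variation of Eif4ebp1 was 27.9%, that of Eif2ak2 13.9%. The intervals hold both no change and a 2-fold rise, so neither can be told from the other at this spread.

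Loss of Fgf21 left all 7 members uncalled, with or without Clpp. In Fgf21 KO against wild type 0 of 7 were called by edgeR, 0 had an unadjusted p under 0.05 and 0 were called by DESeq2, where 0.0459% of all genes were called by edgeR. The ranges of the groups overlapped for all 7, where 1.15% of all genes lay wholly above and 1.57% wholly below. Eif2ak2 had a log2 fold change of -0.14 ± 0.13 (-0.41 to 0.13, edgeR adjusted p = 0.68), Eif2ak3 -0.27 ± 0.19 (-0.67 to 0.12, 0.593) and Eif4ebp1 0.027 ± 0.28 (-0.57 to 0.62, 0.978). In double KO against Clpp KO 0 of 7 were called by either tool, against 0.059% of all genes by edgeR, 0 of 7 had groups without overlap, against 3.11% of all genes upwards and 2.67% downwards, and 1 had an unadjusted p under 0.05, namely Eif2ak3. Eif2ak2 had -0.19 ± 0.13 (-0.46 to 0.081, adjusted p = 0.994) there.

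The interaction asks whether the effect of Fgf21 loss differed between hearts with and without Clpp. It was -0.051 ± 0.18 for Eif2ak2 (-0.43 to 0.33, edgeR adjusted p = 1), an interval that leaves out a 1.5-fold difference. No member was called by edgeR or DESeq2 and 0 had an unadjusted p under 0.05. Among all 15255 genes edgeR called 0 and DESeq2 called 3, with 299 under an unadjusted p of 0.05.

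Ppp1r15a lies 87.6 kb from Fgf21, so the region was looked at for changes that come with the deleted locus. Of 31 tested genes within 250 kb, 3 were called in Fgf21 KO against wild type. They were the potassium channel gene Kcnj14 (6.57 ± 0.43, 201 kb away), the branched-chain aminotransferase gene Bcat2 (1.34 ± 0.20, edgeR adjusted p = 0.0127, 24.2 kb) and Mamstr (-1.27 ± 0.18, 0.00767, 24.5 kb). The call of Mamstr was lost without wild-type replicates 2 and 4 (-0.99, 0.0616) and in a fit on these 2 groups alone (0.174). That of Bcat2 was lost in the same fit (0.268), without wild-type replicate 3 (0.0573) and without Fgf21 KO replicate 1 (0.0609). In double KO against Clpp KO Kcnj14 (6.84 ± 0.46) and Car11 (1.43 ± 0.23, edgeR adjusted p = 0.026, 84.4 kb) were called higher. Bcat2 (1.01, 0.133) and Mamstr (-0.67, 0.726) were not called there, and Car11 was not called in Fgf21 KO against wild type (0.89, 0.538). Ppp1r15a had -0.15 ± 0.23 (-0.64 to 0.34, adjusted p = 0.808). Its neighbour Nucb1 had 0.039 ± 0.076 (0.855) in Fgf21 KO against wild type. The neighbour on the other side, Plekha4, had -1.29 ± 0.34 (0.538) there, which became -0.25 (0.758) without wild-type replicates 2 and 4. The level of Ppp1r15a thus showed no called change beside a locus at which other genes did.

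Around the members, the genes that act directly on eIF2 were not called by edgeR, while some transcripts downstream of the pathway were called higher. Of 9 genes of eIF2, its partner Eif5 and eIF2B, 0 were called by edgeR in Clpp KO against wild type (3 at an unadjusted p under 0.05, all higher, and 2 called higher by DESeq2), with a median log2 fold change of 0.10. Eif2s2, the beta subunit of eIF2, had 0.51 ± 0.13 (adjusted p = 0.0619), and Eif5, which triggers GTP hydrolysis on eIF2, 0.33 ± 0.11 (0.129). Of 12 regulators of the kinases, 0 were called by either tool and 0 had an unadjusted p under 0.05, with a median of 0.075. Dele1, which relays mitochondrial stress to HRI, had 0.26 ± 0.18 (0.402). For the 3 catalytic subunits of protein phosphatase 1 these counts were also 0, with a median of -0.040, and Ppp1cb had 0.37 ± 0.23 (0.356).

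In double KO against Fgf21 KO edgeR and DESeq2 likewise called 0 genes of these 3 lists, with 1, 1 and 0 genes at an unadjusted p under 0.05 and medians of 0.12, -0.0086 and -0.064. Among 10 cap-binding factors and other 4E-BPs, both tools called 0 in both comparisons, with 1 and 0 at an unadjusted p under 0.05. Their medians were 0.21 and 0.12. The gene named Eif4ebp3, a relative of Eif4ebp1, had -1.31 ± 0.45 (edgeR adjusted p = 0.135) in Clpp KO against wild type. The cap-binding gene Eif4e3 had 0.40 ± 0.19 (0.235). The median of all genes was -0.036 in the first comparison and -0.0063 in the second.

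Of 10 stress response transcription factors and targets, edgeR called 4 higher and 0 lower in Clpp KO against wild type (median 1.43), and 2 higher and 0 lower in double KO against Fgf21 KO (median 0.84). DESeq2 called 7 and 4 higher and 0 lower. Asns, which makes asparagine, rose by 3.10 ± 0.32 and 2.34 ± 0.32 (edgeR adjusted p = 7.80e-05 and 0.000846), and the transcription factor gene Atf5 by 2.07 ± 0.23 and 1.26 ± 0.22 (0.000111 and 0.00656). Trib3, an inhibitor of ATF4 signalling, rose by 1.75 ± 0.25 (0.00126) in the first and had 0.98 ± 0.25 (0.0986) in the second, which DESeq2 called (adjusted p = 0.0168). Of the uncalled genes, Atf3 had -0.68 ± 1.14 (0.745) and Nupr1 -0.61 ± 0.49 (0.478) in the first. Atf4 mRNA, which is controlled mainly in translation, had 0.19 (adjusted p = 0.616) in Clpp KO against wild type. Between double KO and Clpp KO, edgeR called 0 of the 10, 5 had an unadjusted p under 0.05, all lower, and DESeq2 called 2 lower.

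**Figure D4:**
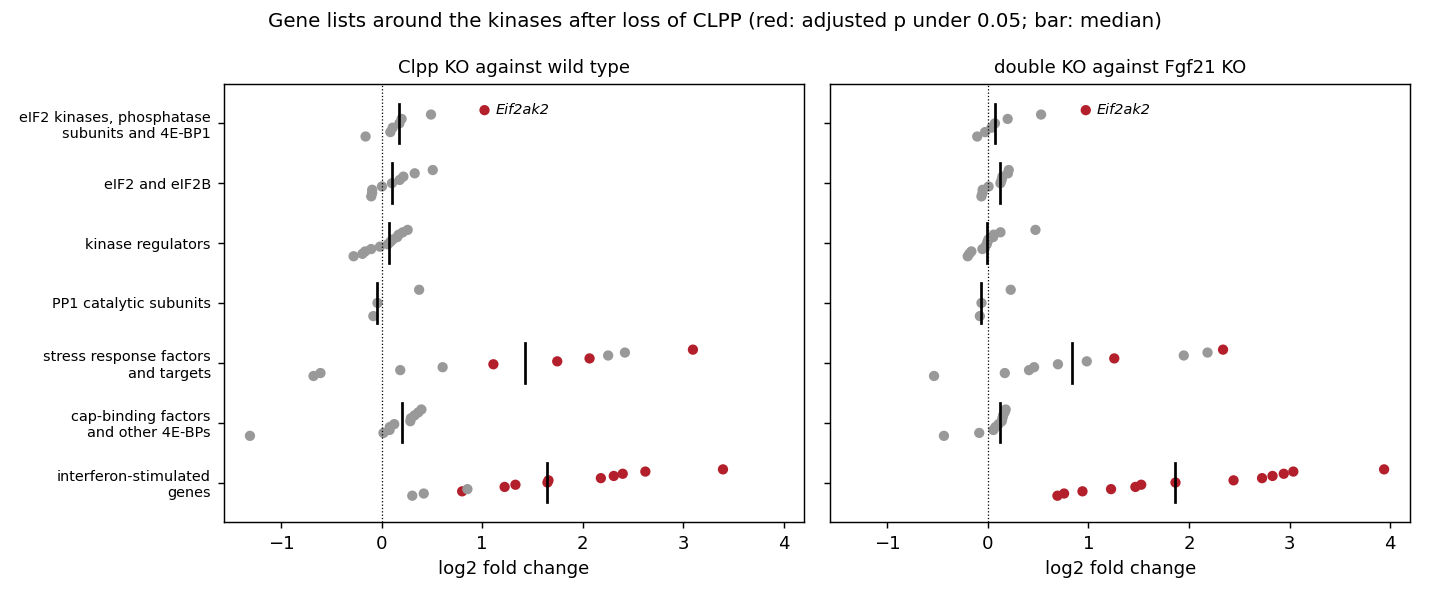
Each point is a gene, placed by its log2 fold change in Clpp KO against wild type (left) or double KO against Fgf21 KO (right), in rows for the 7 members and 6 surrounding lists, with genes past an adjusted p of 0.05 (edgeR) in red and a bar at the median of each list. Red points stand in the rows of Eif2ak2 (1.02 and 0.97), of the stress response genes (4 and 2 of 10) and of the interferon-stimulated genes (10 and 13 of 13), and the other 4 rows hold none.

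Over the 7 members as a group, the median log2 fold change was 0.18 in Clpp KO against wild type, with 6 of 7 above 0, and 0.070 in double KO against Fgf21 KO, with 5 of 7 above 0. For all genes these medians were -0.036 and -0.0063. In Fgf21 KO against wild type the members' median was -0.076, and -0.079 when the double KO was set against the Clpp KO, with 2 and 3 of 7 above 0. The groups of Eif2ak2 did not overlap in Clpp KO against wild type and double KO against Fgf21 KO. They overlapped in Fgf21 KO against wild type and double KO against Clpp KO. The 6 other members overlapped between the groups in each of these 4 comparisons.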

How the data were processed

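RNA from whole cardiac tissue was made into stranded mRNA libraries and sequenced on an Illumina NovaSeq, per the labels' protocols. The authors deposited counts per gene for 16 libraries. Per the submitters' processing notes, the tools were R 4.0.3, DESeq2 1.30.1, edgeR 3.32.1, kallisto 0.46.1 and fastp 0.21.0, with GRCm38.p6. kallisto splits reads among transcripts they match, so related genes can exchange counts. The step that made the counts whole, and any use of strand in counting, are not given in the sources used here.

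The counts were tested as deposited. filterByExpr of edgeR 4.0.16 (count minimum 10, total minimum 15) kept 15255 genes, and TMM factors ran from 0.674 to 1.83. 1 quasi-likelihood model with a mean per group was fitted to all 16 libraries (R 4.3.3, 12 residual degrees of freedom, common biological coefficient of variation 0.249), and comparisons were drawn from it. Tests were two-sided, with Benjamini-Hochberg adjustment over all genes tested. Intervals are at 95%. Scaled CPM per kb divides by merged exon length in GENCODE M21. DESeq2 1.42.0 and other scalings, filters, covariates and left-out libraries were alternatives. The steps were tested on simulated counts.

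The rule for named genes takes the members, Clpp and Fgf21, the 5 closest profiles to any called member, up to 3 called members of each list by p (2 where none was called), and called genes and neighbours near Fgf21. Lists were drawn up from textbook knowledge. The members and lists were chosen with earlier results of these data known, so they are no independent evidence. Isg15 was on the interferon list and was not analysed here.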

Additional observations from a re-analysis of the deposited data

Results flagged for a closer look

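Of 28 sets of 4 libraries, 1 for each member and group, 3 held a library whose distance to its nearest neighbour exceeded Dixon's 95% critical value as a share of the range. Chance alone marks about 1 in 20 such sets. Eif2ak2 was at 13.3 scaled CPM in Clpp KO replicate 1, where the others of the group lay between 9.43 and 9.96 (ratio 0.863). Eif2ak4 was at 6.33 in double KO replicate 3, against 4.30 to 4.52 (0.89). Eif4ebp1 was at 68.8 in wild-type replicate 4, against 29.5 to 33.3 (0.906).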

How the results depend on the processing

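The scaling, the atrial covariate, the count model and the libraries left out each moved counts of calls; the cause was not tested. The rise of Eif2ak2 stayed called in 25 of 26 alternatives in Clpp KO against wild type, 25 of 26 in double KO against Fgf21 KO, and 24 of 26 when the double KO was set against wild type. Leaving out 1 library at a time gave 0.90 to 1.08, 0.92 to 1.04 and 0.78 to 0.89, called each time. With library totals alone all 3 calls were lost, and with totals without mtDNA-encoded counts, a setting chosen after seeing the data, the third was (0.63, adjusted p = 0.0506). The label numbers did not pair the samples: 4 of 24 same-numbered pairs had a correlation over 0.1 (-0.228 to 0.364), and 3 of 16 libraries correlated best with their own number. With the replicate number as a block Eif2ak2 had 1.02, 0.97 and 0.83, all called, and calls in Clpp KO against wild type were 146 (119 higher, 27 lower) in place of 249.

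The number of all genes called was 841 (439 higher, 402 lower), 209 (177, 32), 34 (20, 14), 35 (18, 17), 966 (415, 551) and, for the interaction, 3 (2, 1) with DESeq2, in this order: Clpp KO against wild type, double KO against Fgf21 KO, loss of Fgf21 with Clpp and without it, and both losses against wild type. edgeR called 249, 136, 7, 9, 233 and 0. With the atrial score as a covariate the first was 1118 (552, 566), the third 13 and the interaction 1. Fitted on the compared groups alone, the first was 151 (121, 30) and double KO against wild type 56 (50, 6); the interaction cannot be fitted on 2 groups. With wild-type replicates 1 and 3 summed these were 562 (266, 296) and 821 (288, 533). Without wild-type replicates 2 and 4, calls were 159 (132, 27), 241 (198, 43), 15 (8, 7) between double KO and Clpp KO, and 148 (124, 24) between double KO and wild type. Leaving out 1 library gave 114 to 949 in Clpp KO against wild type (949, 504 and 138 when wild-type replicate 3, 1 or 4 was dropped, and 114, 134, 125 and 124 when Clpp KO replicate 1, 2, 3 or 4 was) and 129 to 1116 in double KO against wild type (1116, 870 and 146 on dropping wild-type replicate 3, 1 or 4, and 141, 129, 144 and 150 on dropping double KO replicate 1, 2, 3 or 4). With library totals alone, 11933 genes (95 higher, 11838 lower), 10858 (96, 10762) and 13124 (85, 13039) were called in the 3 comparisons that remove Clpp, and 5 members lower with 0 higher in each. Without mtDNA-encoded counts in the totals, 88 genes (78, 10) were called in double KO against Fgf21 KO, 628 (115, 513) in double KO against wild type, and 0 members in the latter.

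Signs that turned under library totals alone were, in Clpp KO against wild type, Ppp1cb -0.30, Dele1 -0.43, Eif5 -0.41, Eif2s2 -0.20, Parp14 -0.086, Trim34a -0.085, Eif4e3 -0.29, Eif2ak1 -0.61, Eif2ak3 -0.59, Eif2ak4 -0.68, Ppp1r15b -0.56 and Eif4ebp1 -0.25. In Fgf21 KO against wild type they were Nucb1 -0.17, Eif4ebp1 -0.18 and Eif2ak1 -0.078, and in double KO against wild type Eif4ebp1 -0.36, Ppp1r15b -0.79, Eif2ak2 -0.071 and Eif2ak1 -0.71. In double KO against Clpp KO they were Eif4ebp1 -0.11, Ppp1r15a -0.10 and Eif2ak1 -0.10, in double KO against Fgf21 KO Eif2ak1 -0.63, Ppp1r15a -0.65, Eif4ebp1 -0.19 and Ppp1r15b -0.50, and in the interaction Eif2ak2 0.029. Without mtDNA-encoded counts in the totals they were Ppp1r15b -0.085 and Eif2ak1 -0.022 in double KO against wild type, Eif2ak4 -0.0015 in Clpp KO against wild type, Ppp1r15a -0.039 in double KO against Fgf21 KO, Nucb1 -0.099, Eif2ak1 -0.027 and Eif4ebp1 -0.092 in Fgf21 KO against wild type, and Eif4ebp1 -0.077, Ppp1r15a -0.083 and Eif2ak1 -0.072 in double KO against Clpp KO. With the atrial score they were Eif2ak1 -0.040 in double KO against Clpp KO and -0.024 in double KO against Fgf21 KO, Eif2ak3 0.047 in the latter and the Eif2ak2 interaction 0.0027. With wild-type replicates 1 and 3 summed, Eif4ebp1 had -0.061 in Fgf21 KO against wild type. Without wild-type replicates 2 and 4, Ppp1r15a had 0.059, 0.076 and 0.096 in Clpp KO, Fgf21 KO and double KO against wild type, Eif2ak1 -0.044 and -0.045 in the first and second of these, and Dele1 -0.099 and Ppp1cb -0.075 in Clpp KO against wild type. Leaving out 1 library gave Eif2ak3 -0.18 to 0.11 and Ppp1r15a -0.22 to 0.24 in double KO against Fgf21 KO. In Fgf21 KO against wild type it gave Eif2ak4 -0.094 to 0.0065, Ppp1r15a -0.33 to 0.0057, Ppp1r15b -0.15 to 0.0044 and Eif4ebp1 -0.14 to 0.40. It gave Ppp1r15a -0.21 to 0.25 and Eif4ebp1 -0.21 to 0.20 in double KO against Clpp KO, Ppp1r15a -0.36 to 0.090 in double KO against wild type and the Eif2ak2 interaction -0.11 to 0.073.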
